A study of Mus musculus with 36 samples.

Results

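B2m and 9 other genes that build and load MHC class I molecules were followed in RNA of mouse natural killer (NK) cells. They were taken as the rows whose symbol matched a fixed name in each of the 4 deposited expression tables. All 10 names matched a row, among 32940 listed genes in the table of sorted spleen cells and 56923 in each other table. The genes are the light chain B2m (ENSMUSG00000060802), the heavy chains H2-K1 (ENSMUSG00000061232), H2-D1 (ENSMUSG00000073411) and H2-T23 (ENSMUSG00000067212), the peptide transporter subunits Tap1 (ENSMUSG00000037321) and Tap2 (ENSMUSG00000024339), the loading factors Tapbp (ENSMUSG00000024308), Calr (ENSMUSG00000003814) and Pdia3 (ENSMUSG00000027248), and the transcriptional activator Nlrc5 (ENSMUSG00000074151).

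An MHC class I molecule is a heavy chain held together with beta-2 microglobulin, the product of B2m, and a short peptide. The TAP transporter brings peptides from the cytosol into the endoplasmic reticulum (ER), where tapasin, calreticulin and the disulfide isomerase ERp57 hold the empty molecule until a peptide binds. Without beta-2 microglobulin, most heavy chains neither fold nor reach the cell surface. NK cells read class I with inhibitory receptors of the Ly49 family and with CD94/NKG2A, and NK cells that develop in a host without class I are known to respond weakly to stimulation.

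The study set functional against desensitized NK cells, per its title, in 36 libraries that form 12 groups of 3 biological replicates. Mature CD27-CD11b+ NK cells were sorted from spleens of WT mice (B2m+/+, of the C57BL/6 strain) and of B2m-/- mice, written KO here. They were gated on the inhibitory receptors Ly49C, Ly49I and NKG2A: the TP gate holds cells with every one of them, the SP gate cells with Ly49I only, and the TN gate cells with none. The KO label is one of the mouse, not of NK cells alone, so the class I of the NK cells and of their neighbours was lost together. Splenocytes of WT mice were also kept for 22 hours with vehicle or ionomycin, a calcium ionophore, before NK cells were sorted. Other NK cells came from WT splenocytes kept for 48 hours in medium or on plates coated with antibodies to NKp46 plus NKG2D or to NKp46 plus DNAM-1. A last group came from WT mice 10 days after subcutaneous injection of MC38 B2m-/- cells, a mouse colon carcinoma line without B2m, and has no control in its table. Ages and sexes of the mice are not given in the sources used here.

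Values are TPM, transcripts scaled to a common total per library, and they are divided by gene length, which allows levels of different genes to be set side by side. Sequencing depth cannot be read from TPM, and precision is given by the spread over libraries: Pearson correlations of log2 values between replicates ran from 0.904 to 0.965 in the subset table, 0.804 to 0.899 in the ionomycin table, 0.857 to 0.953 in the antibody table and 0.808 to 0.844 in the tumour table. The 11 NK cell markers were present in all 12 groups and summed to at least 6404 TPM in every library. The NKG2A part of the sort labels was met by Klrc1, which encodes NKG2A: its WT mean was 864 TPM in the TP gate, 25.4 in the SP gate and 22.5 in the TN gate. Klrc1 does not separate the SP from the TN gate. Klra9, the gene of Ly49I, averaged 963 TPM in WT TP cells and 82.4 TPM in WT TN cells. The KO TP libraries stood apart: their 8 neutrophil markers summed to between 61.0 and 217.5 TPM, against at most 5.85 in the other 5 sorted groups, and the plasma cell transcript Igha ran from 70.5 to 169 TPM there. In the antibody table the title and the named column of a library gave different groups for 6 of 9 libraries, and the columns were followed.

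The class I genes were among the most abundant transcripts of these NK cells. H2-K1 was the highest of the 10 in every sorted library, between 5847 and 7313 TPM and never below rank 7 of all genes listed. H2-D1 lay between 2619.99 and 3104 TPM and ranked no lower than 19. B2m reached rank 11 in WT cells. The nonclassical heavy chain H2-T23, whose product Qa-1 presents leader peptides of other heavy chains to CD94/NKG2A, lay well below both, at 251 to 352 TPM. The transporter and loading genes were at comparable levels: Calr at 368 to 651, Tapbp at 234 to 311, Pdia3 at 201 to 324, Tap1 at 133 to 238 and Tap2 at 115 to 168 TPM. Nlrc5, the activator that drives class I promoters, lay between 155 and 244 TPM. Fewer cells of a type and less RNA per cell cannot be told apart in bulk libraries such as these.

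**Figure D1:**
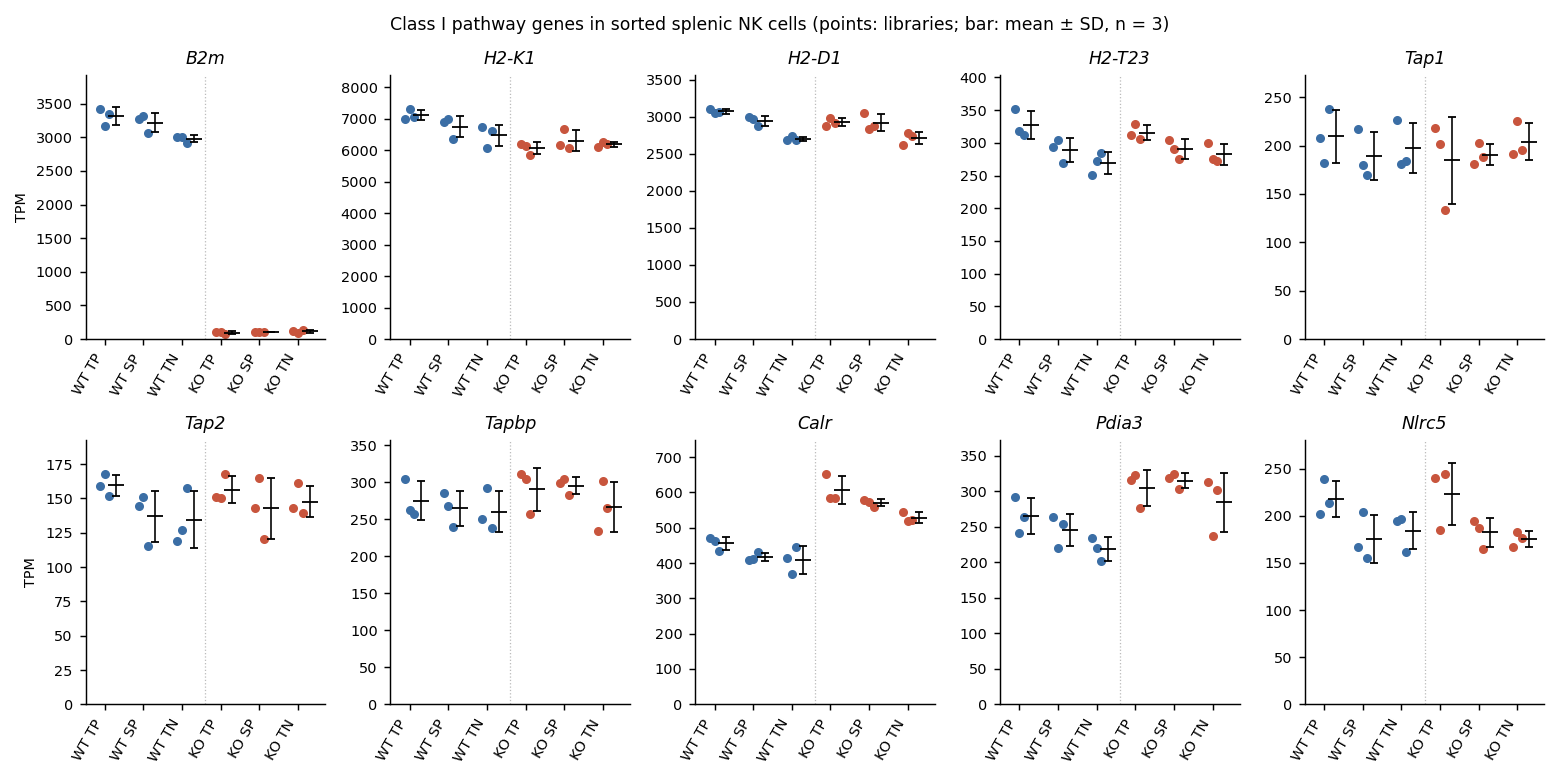
Levels in TPM of the 10 genes (vertical axes from 0) in the 6 sorted groups, with WT libraries in blue, KO libraries in red, 1 point per library and a bar for the mean ± SD of 3 libraries. B2m falls to near 0 in every KO group, Calr is higher in all 9 KO libraries than in any WT library, and the other genes overlap between genotypes in at least 1 subset.

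B2m, the gene the genotype names, checks the labels. TP cells held 3419.6, 3165 and 3351 TPM in WT libraries and 102, 107 and 73.9 TPM in KO libraries. SP cells held 3271, 3317 and 3056 TPM against 107, 106 and 109.9 TPM, and TN cells 3009, 3006 and 2915 TPM against 117, 94.8 and 128 TPM. Every KO library lay far below every WT library, with 22.7-fold between the lowest WT and the highest KO value. As a share of the WT mean, 2.84% remained in TP, 3.34% in SP, and 3.81% in the TN gate. Which stretch of the gene the allele lacks is not given in the sources used here, so whether these transcripts could be translated cannot be read from TPM. On the scale of log2(TPM + 1), limma, with Benjamini-Hochberg adjustment over 12018 genes, gave -5.14 (SE 0.12, adjusted p = 1.29e-14) in TP cells. The SP value was -4.89 (adjusted p = 2.93e-14), and the TN value -4.71 (adjusted p = 5.38e-14).

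Beside B2m, few of the other 9 genes passed an adjusted p of 0.05 between genotypes. In TP cells 3 of 10 were called (B2m, H2-K1 and Calr), where 1.59% of all genes tested were. In SP cells 2 of 10 were called (B2m and Calr) against 1.35% of all genes, and in TN cells the same 2 against 0.716%. Averaged over the 3 subsets 4 of 10 were called against 6.18% of all genes: B2m and H2-K1 fell, and Calr and Pdia3 rose. Groups did not overlap for 3 lower genes and 1 higher gene of the 10 in TP cells (7.14% and 11.1% of all genes), for 1 and 2 in SP cells (7.78% and 11.1%) and for 1 and 2 in TN cells (5.76% and 7.95%). B2m, whose fall the genotype fixes, is among the called and the lower genes in every subset. Over all 18 libraries B2m alone was lower (0.399% of all genes) and Calr alone higher (0.824%) without overlap. Of all genes, the averaged comparison called 3.82% higher and 2.36% lower, which is 459 and 284 genes, or 358 and 350 after median-of-ratios rescaling. The median log2 difference of the 10 genes was 0.01, and that of all genes was 0.04. Cell type markers moved with genotype in the same averaged comparison. Of 11 tested NK cell markers 1 rose (Gzmb, 0.32) and 3 fell (Ncr1 by 0.23, Tbx21 by 0.26 and Tyrobp by 0.15). Of other lineages' tested markers, 4 of 5 for neutrophils, 1 of 2 for T cells (Cd3g, 1.43) and 1 of 5 for B and plasma cells (Igha, 2.26) rose, and 1 of 3 for myeloid cells (Itgax) fell by 0.38. Itgax averaged 493 TPM in WT TP and 865 TPM in WT TN cells, where the myeloid marker Cd68 averaged 6.81 and 10.5 TPM. Its fall therefore cannot be read as fewer myeloid cells. The part of these markers in the class I values was not tested.

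**Figure D2:**
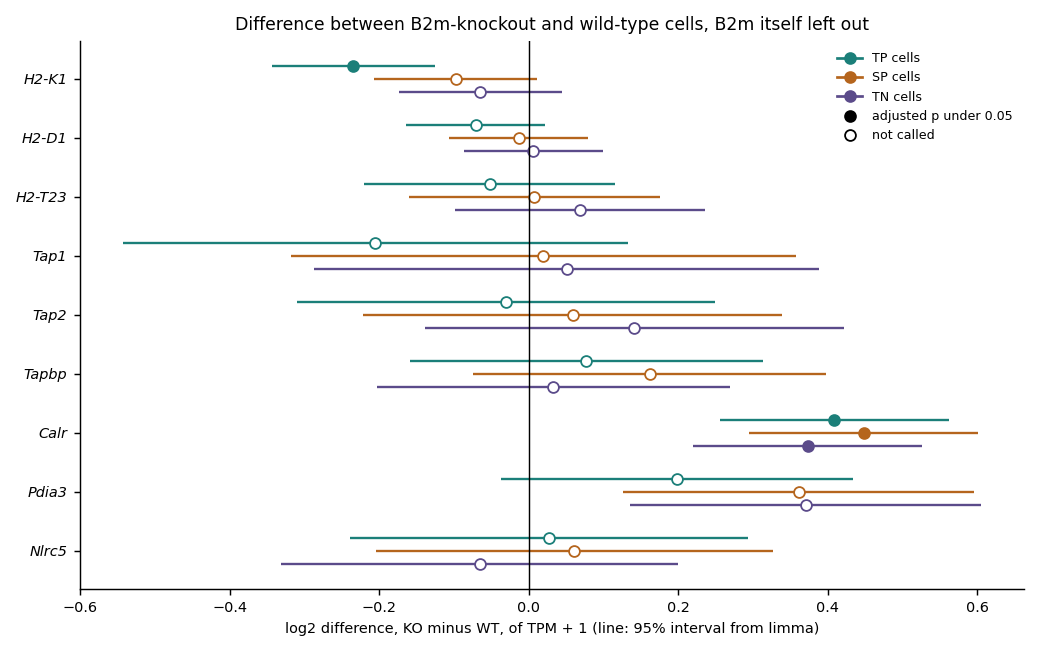
Log2 difference, KO minus WT, of 9 class I genes in TP, SP and TN cells (points, filled where the adjusted p from limma is under 0.05; lines are 95% intervals; B2m is left out for scale). Calr is called in all 3 subsets with values from 0.37 to 0.45, H2-K1 in TP cells alone, and Pdia3 lies right of 0 in each subset without a call.

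Among the heavy chains, H2-K1 was lower in KO TP cells, by a small amount. The WT TP libraries held 7011, 7313 and 7065 TPM, and the KO TP libraries 6211, 6122 and 5847. The groups did not overlap, and the log2 difference was -0.23 (SE 0.05, adjusted p = 0.0265), or 15.0% less. In SP cells the values were 6900.2, 6988 and 6374 TPM in WT against 6185, 6679 and 6074 in KO, and the genotypes overlapped. In TN cells they were 6729, 6089 and 6616 TPM against 6116, 6265 and 6189, and again overlapped. The SP and TN differences were -0.10 (95% interval -0.21 to 0.01) and -0.06 (-0.17 to 0.04). The average over subsets was -0.13 (SE 0.03, adjusted p = 0.0126). This call is fragile: quantile normalization gave -0.03 for the average (adjusted p = 0.798), the 12 SP and TN libraries alone gave -0.08 (adjusted p = 0.39), and the TP call was lost under each of 6 removals of 1 library (adjusted p from 0.06 to 0.132).

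H2-D1, the other classical heavy chain of this strain, did not differ detectably between genotypes. Its WT libraries ran from 2680.02 to 3104 TPM with a median of 2974, and its KO libraries from 2619.99 to 3052 with a median of 2869.7. The averaged log2 difference was -0.03, with a 95% interval from -0.08 to 0.03. The averaged H2-K1 value was -0.13, and whether the genotype difference of H2-K1 differs from that of H2-D1 was not tested. H2-T23 ran from 251 to 352 TPM in WT and from 272 to 328 TPM in KO libraries, with an averaged difference of 0.01 (95% interval -0.09 to 0.10). Of 16 other class I heavy chain symbols fixed with the list, 9 were tested, and 1 of these was called in the averaged comparison. H2-Q4, a nonclassical Qa-2 region gene, fell from a WT mean of 462 ± 32.5 to a KO mean of 396 ± 41.7 TPM (SD, n = 9 libraries, 3 in each subset), a log2 difference of -0.23 with adjusted p = 0.0342. The H2-Q4 call was lost without the TP libraries (-0.17, adjusted p = 0.32) and in 11 of 18 removals of 1 library. Class I heavy chains are close paralogs, and how ambiguous reads were shared among them can move TPM between their rows, so values of single heavy chains are uncertain on that account.

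The ratio of heavy chain to light chain transcripts shows how far the genotype moved the balance. H2-K1 TPM divided by B2m TPM in WT mice averaged 2.16 ± 0.14 for TP, 2.10 ± 0.01 for SP and 2.18 ± 0.13 for TN cells (SD, n = 3). In KO cells it averaged 65.8 ± 11.6, 58.8 ± 4.03 and 55.5 ± 9.37. Among WT cells the ratio varied between 2.03 and 2.31 over all 9 libraries. The balance of the heavy chains themselves moved little, with H2-K1 over H2-D1 between 2.22 and 2.51 in WT and between 2.00 and 2.35 in KO libraries.

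The H2-K1 and H2-D1 promoters are shown because these paralogs share most of their upstream sequence and yet gave different calls. Both hold the kappa B motif GGGATTCCC within 250 bases before the start, and capitals mark it. The motif was searched on both strands and is in 0.301% of 32851 RefSeq promoters of build GRCm38.p6. Sequences run 5′ to 3′ along the gene.
H2-K1 (chr17:34000404-34000503, minus strand): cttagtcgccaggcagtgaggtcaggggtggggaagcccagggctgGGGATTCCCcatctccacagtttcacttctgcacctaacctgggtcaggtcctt
H2-D1 (chr17:35262878-35262977, plus strand): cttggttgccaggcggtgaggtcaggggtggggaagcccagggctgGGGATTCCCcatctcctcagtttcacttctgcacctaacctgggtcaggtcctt
The motif begins 110 bases before the start in H2-K1 and 170 in H2-D1. The windows of 100 bases, placed around it, are identical at 96 positions, and sequence outside them was not compared. A match describes the letters in the window and is neither a site in use nor a cause of a value.

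Calr gave the smallest adjusted p of the 10 genes after B2m in the averaged comparison. It encodes calreticulin, a lectin chaperone that binds the glycan of newly made heavy chains and sits in the peptide-loading complex. TP cells held 471, 462 and 435 TPM in WT libraries against 651, 584 and 584 TPM in KO libraries. SP cells held 409.7, 412 and 431 TPM against 578, 574 and 559 TPM. TN cells held 414, 368 and 445 TPM against 545, 518 and 522 TPM. The highest of the 9 WT values, 471 TPM, was below the lowest of the 9 KO values, 518 TPM. Calr rose by 0.41 log2 units in TP cells (SE 0.07, adjusted p = 0.00527), by 0.45 in the SP gate (adjusted p = 0.00242) and by 0.37 in the TN gate (adjusted p = 0.0203). Averaged over subsets it rose by 0.41 (SE 0.04, adjusted p = 6.38e-06), or 32.9%. The TN call was lost in 5 of 6 removals of 1 library (adjusted p up to 0.0955) and the TP and TN calls were lost when only the 6 libraries compared were fitted (adjusted p = 0.0577 and 0.32), while the TN difference ran from 0.30 to 0.44 over the removals.

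The neutrophil and plasma cell transcripts of the KO TP libraries move with this comparison in TP cells. The Calr difference was 0.41 in TP cells, and 0.45 in SP and 0.37 in TN cells, where neutrophil markers summed to at most 5.85 TPM. The averaged Calr difference was 0.41 (adjusted p = 0.00113) without any TP library. The part of the neutrophil and plasma cell transcripts in the Calr difference was not tested.

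Pdia3 encodes ERp57, the disulfide isomerase that works with calreticulin and is linked to tapasin in the loading complex. TP cells held 292, 242 and 263 TPM in WT libraries against 316, 323 and 276 TPM in KO libraries, with overlap. SP cells held 264, 220.3 and 254 TPM against 318, 324 and 304 TPM, without overlap. TN cells held 235, 220.2 and 201 TPM against 314, 237 and 303 TPM, also without overlap. No single subset passed the threshold: the log2 differences were 0.20 (adjusted p = 0.512), 0.36 (adjusted p = 0.147) and 0.37 (adjusted p = 0.194). Averaged over subsets, Pdia3 rose by 0.31 (SE 0.06, adjusted p = 0.00708), or 24.0%, and by 0.37 (adjusted p = 0.0355) without the TP libraries.

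Pdia3 lies near B2m in the genome, 14 tested genes away in the RefSeq gene order of GRCm38.p6. Of the 20 tested genes on each side of B2m, 8 of 40 (20.0%) were called in the averaged comparison, against 6.18% of all genes. The 8 include Pdia3 itself. Within TP, SP and TN cells 1, 1 and 2 of the 40 were called (2.5%, 2.5% and 5.0%), against 1.59%, 1.35% and 0.716% of all genes. The 8 are Pdia3, Mfap1b, Slc28a2b, Slc30a4 and Sqor, which rose, and Eif3j1, Spg11 and Slc28a2, which fell. Slc28a2, a nucleoside transporter gene 5 tested genes from B2m, showed the largest of these differences at -2.45 (adjusted p = 1.66e-13). These neighbours were examined after the Pdia3 value was seen, and whether sequence linked to the knockout allele moved Pdia3 was not tested.

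The other loading and transport genes did not pass the threshold. Tapbp encodes tapasin, the bridge between heavy chain and transporter. It ran from 239 to 305 TPM in WT and from 234 to 311 TPM in KO libraries, with an averaged log2 difference of 0.09 (95% interval -0.05 to 0.23). Tap1 and Tap2 form the peptide transporter. Tap1 ran from 170 to 238 TPM in WT and from 133 to 226 TPM in KO libraries (averaged difference -0.04, 95% interval -0.24 to 0.15). Its lowest value was that of KO TP replicate 3. Tap2 ran from 115 to 167 TPM in WT and from 120.4 to 168 TPM in KO libraries (0.06, 95% interval -0.11 to 0.22). The intervals exclude, for all 3 genes, a change of the size seen for Calr.

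Nlrc5 did not differ detectably between genotypes. Its WT libraries ran from 155 to 239 TPM with a median of 196, and its KO libraries from 165 to 244 TPM with a median of 185. The averaged difference was 0.01 (95% interval -0.15 to 0.16). Among 15 tested transcription factors of class I promoters, 2 rose in the averaged comparison and 0 fell, where 3.82% of all genes rose and 2.36% fell. Nfya, a subunit of the CCAAT-binding complex NF-Y, rose by 0.38 (adjusted p = 0.00573), and Irf8, an interferon regulatory factor, rose by 0.56 (adjusted p = 0.00315). Without the TP libraries neither passed (0.29 with adjusted p = 0.213, and 0.50 with adjusted p = 0.0607). Of 11 tested genes that supply or trim peptides, the immunoproteasome subunits Psmb8 and Psmb9 among them, 0 were called by limma, against 6.18% of all genes. Of 3 tested genes for other proteins that bind beta-2 microglobulin, 0 were called, against the same share of all genes.

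Calr and Pdia3 are general ER chaperones as well as loading factors, so their neighbours in that role were compared. Of 16 tested genes for ER folding and quality control of class I, 3 rose in the averaged comparison and 0 fell (3.82% and 2.36% of all genes). Hspa5, the ER chaperone BiP, ran from 186 to 257 TPM in WT and from 274 to 309.9 TPM in KO libraries, without overlap. It rose by 0.36 (SE 0.05, adjusted p = 0.00041), and in SP cells alone by 0.51 (adjusted p = 0.00822). Hsp90b1, the ER form of HSP90 known as GRP94, ran from 329 to 437 TPM in WT and from 393 to 541 TPM in KO libraries and rose by 0.33 (adjusted p = 0.0103). Pdia6, another disulfide isomerase, rose by 0.39 (adjusted p = 0.0393), from a WT range of 72.1 to 138 TPM to a KO range of 111 to 149 TPM. The membrane-bound partner of calreticulin, Canx, ran from 131 to 215 TPM in WT and from 151 to 234 TPM in KO libraries and was not called (0.17, adjusted p = 0.357). The median of the 16 genes was 0.04, as was that of all genes. Without the TP libraries Hspa5 kept its call (0.42, adjusted p = 0.0104), and Hsp90b1 (0.31, adjusted p = 0.145) and Pdia6 (0.39, adjusted p = 0.157) did not. Pdia6 also lost it in 14 of 18 removals of 1 library.

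**Figure D3:**
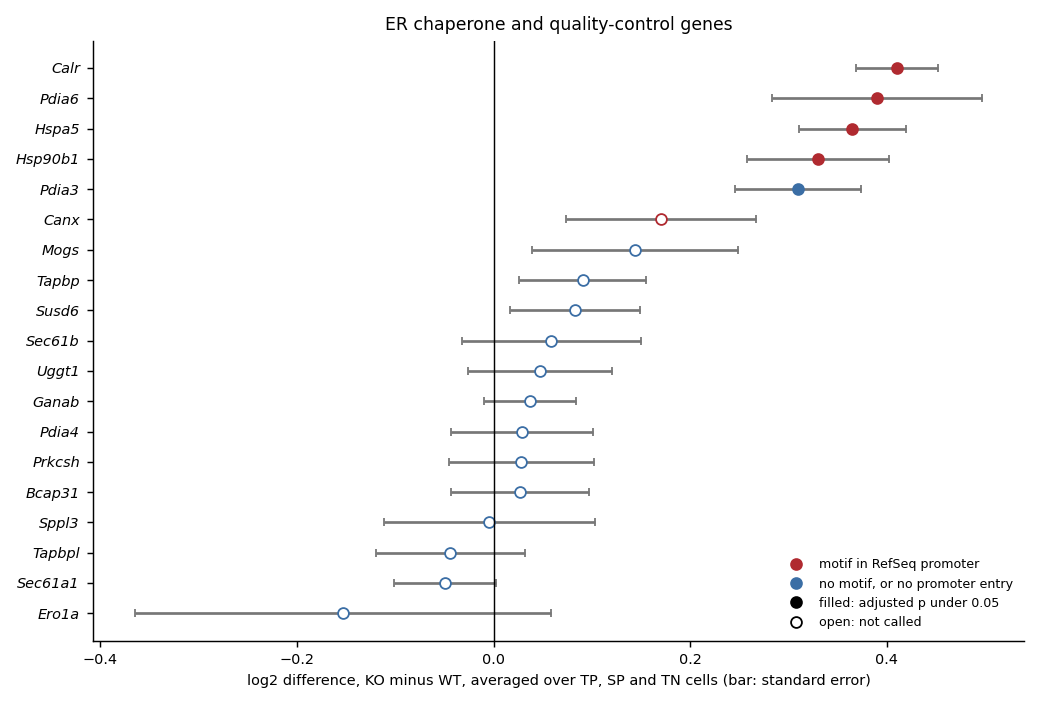
Log2 difference, KO minus WT, averaged over TP, SP and TN cells, for Calr, Pdia3, Tapbp and 16 other genes of ER folding and quality control (points; bars are standard errors from limma; filled where the adjusted p is under 0.05; red where the RefSeq promoter holds the ER stress response element). The 5 called genes lie between 0.31 and 0.41, and 4 of them hold the motif.

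The promoters of Calr, Hspa5, Hsp90b1, Pdia6 and Canx are shown because they share 1 spaced motif. It is the ER stress response element, CCAAT and CCACG with 9 bases of any kind between them, known as a binding sequence for NF-Y with ATF6. The 250 bases before the start were searched on both strands, and 37 of 32851 RefSeq promoters of GRCm38.p6 (0.113%) hold it. Capitals mark the fixed letters, as the reverse complement where the match is on the minus strand of the gene.
Calr (chr8:84847035-84847134, minus strand): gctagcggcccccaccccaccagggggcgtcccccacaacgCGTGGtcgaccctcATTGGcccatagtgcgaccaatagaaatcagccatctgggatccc
Hspa5 (chr2:34771984-34772083, plus strand): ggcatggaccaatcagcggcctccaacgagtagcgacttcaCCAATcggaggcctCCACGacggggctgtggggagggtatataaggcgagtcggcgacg
Hsp90b1 (chr10:86705493-86705592, minus strand): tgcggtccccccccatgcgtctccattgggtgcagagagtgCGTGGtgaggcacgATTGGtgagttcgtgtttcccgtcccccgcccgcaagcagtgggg
Pdia6 (chr12:17266450-17266549, plus strand): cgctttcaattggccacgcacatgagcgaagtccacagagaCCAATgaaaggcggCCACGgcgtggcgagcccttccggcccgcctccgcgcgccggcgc
Canx (chr11:50325760-50325859, minus strand): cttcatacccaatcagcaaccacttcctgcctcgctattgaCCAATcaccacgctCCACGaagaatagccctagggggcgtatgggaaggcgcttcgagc
Among the class I genes with a RefSeq promoter (8 of 10), Calr is the 1 that holds the element. Hsp90b1 holds it on both strands, and the window shows the match nearer the start. Of the 35 gene symbols with the element, 17 were tested, and 5 rose in the averaged comparison while 0 fell, against 3.82% of all genes called higher. The 5 are Calr, Hspa5, Hsp90b1, Pdia6 and Creld2, an ER protein gene that rose by 0.42 (adjusted p = 0.00942). The median of the 17 was 0.20, against 0.04 for all genes. This motif was chosen after the Calr and Hspa5 values were seen. Calr, Hspa5, Hsp90b1 and Pdia6 had already been called above, and of the 5 only Creld2 is new here. The count is therefore a description and no separate evidence on the motif. Canx holds the element and was not called, and Pdia3 was called without it.

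Further ER and heat shock genes, also chosen after the values were seen, were counted in the same comparison. Of 17 other ER stress response genes, 6 rose and 1 fell, where 3.82% of all genes rose and 2.36% fell. Hyou1, Creld2, Herpud1, Xbp1, Dnajb9 and Manf rose, from 0.30 to 0.46, and the transcription factor Atf4 fell by 0.16. Creld2 is also in the motif count above. The calls of Manf, Dnajb9, Xbp1 and Atf4 were lost in 15, 14, 13 and 14 of 18 removals of 1 library, and of the 7 genes only Hyou1 kept its call without the TP libraries (adjusted p = 0.0361). The ER stress factor Ddit3 stood at -0.08 (adjusted p = 0.676). Of 11 other tested heat shock genes, 7 rose, against 3.82% of all genes called higher. They were Dnajb1, Hspa8, Hsp90aa1, Hsp90ab1, Hspd1, Hsph1 and Hspa1b, from 0.62 for Hspd1 to 2.01 for Hspa1b. These heat shock transcripts thus moved with genotype alongside Calr and the ER chaperones, by larger amounts (Hspa1b lost its call without the TP libraries, adjusted p = 0.0641), and their part in the Calr difference was not tested.

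The receptors that read class I were also compared. Of 11 tested entries for receptor genes (Lilrb4a has more than 1 entry), 2 rose and 1 fell in the averaged comparison, against 3.82% and 2.36% of all genes. Klra7, which encodes Ly49G2, averaged 578 ± 24.2 TPM in KO against 290.0 ± 18.0 in WT TP cells (SD, n = 3), a rise of 0.99 (adjusted p = 3.52e-06), and rose by 0.49 in SP cells (adjusted p = 0.00757). Klra9, which encodes Ly49I, averaged 158 ± 25.6 TPM in KO against 82.4 ± 5.31 in WT TN cells, a rise of 0.92 (adjusted p = 0.000751). Klra4 fell by 0.28 in the average (adjusted p = 0.0314), a call lost in 10 of 18 removals of 1 library. The Klra genes are close paralogs, and the sorts select on Ly49C, Ly49I and NKG2A, so their levels are uncertain and in part fixed by the gates.

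Among WT cells, all 10 class I genes were lowest on average in SP or TN and highest in TP cells. TN cells, which lack the 3 inhibitory receptors, were lower than TP cells for 10 of 10 genes, with a median log2 difference of -0.17 against -0.01 for all genes. Only H2-D1 passed the threshold, where 1.31% of all genes did. The TP libraries held 3104, 3050.4 and 3060.1 TPM and the TN libraries 2680.02, 2738 and 2680.4 TPM. The gene fell by 0.19 log2 units (SE 0.04, adjusted p = 0.0476), or by 12.1%. This call did not withstand the replicate block, in which libraries of 1 column number are held to be 1 mouse (adjusted p = 0.0558), or any of 6 removals of 1 library (adjusted p from 0.0795 to 0.142).

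The other differences between WT TN and TP cells went the same way without a call. H2-T23 stood at 352, 319 and 312 TPM in TP and at 251, 272 and 285 TPM in TN cells (-0.28, adjusted p = 0.11). Pdia3 differed by -0.28 (adjusted p = 0.294), Nlrc5 by -0.24 (adjusted p = 0.453), Tap2 by -0.25 (adjusted p = 0.459) and H2-K1 by -0.14 (adjusted p = 0.246). For 6 of the 10 genes (B2m, H2-K1, H2-D1, H2-T23, Pdia3 and Nlrc5) every TN library lay below every TP library, which held for 7.95% of all genes. Nlrc5 TPM were 202, 239 and 213 in TP and 194, 196 and 162 in TN cells. These 10 genes are measured in the same libraries and are not independent of each other. Of the NK cell markers, Gzma, Gzmb, Prf1 and Ncr1 fell and Eomes rose in the same comparison, and the part of a different cell state in the class I values was not tested.

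SP cells, which carry Ly49I alone, were compared with both. Compared with TP cells of WT mice, all 10 genes were lower in SP cells, with a median of -0.12 against 0.00 for all genes, and 0 of 10 were called by limma, against 0.191% of all genes (2 of 10 had an unadjusted p under 0.05, as had 7.71% of all genes). For 5 of 10 every SP library lay below every TP library, against 5.37% of all genes. The largest difference was that of Nlrc5 at -0.32 (adjusted p = 0.565). Between TN and SP cells of WT mice 0 of 10 were called, against 0.383% of all genes, and 1 of 10, H2-D1 at -0.13, had an unadjusted p under 0.05 (12.1% of all genes). For 2 of 10 every TN library lay below every SP library, against 6.11% of all genes. For H2-D1 the order TP, SP, TN held without overlap of libraries at either step.

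In KO mice the subsets differed less evenly. TN were lower than TP cells for 7 of 10 genes, with a median of -0.11 against -0.03 for all genes. By limma 0 of 10 were called, against 0.524% of all genes, and 4 of 10 had an unadjusted p under 0.05 (6.43% of all genes). For 4 of 10 every TN library lay below every TP library, against 7.49% of all genes. Nlrc5 held 240.3, 185 and 244 TPM in the KO TP libraries against 167, 183 and 177 TPM in KO TN libraries (-0.33, adjusted p = 0.546), and Calr differed by -0.20 (adjusted p = 0.534). Between SP and TP cells of KO mice 0 of 10 were called against 0.2% of all genes (1 of 10 at an unadjusted p under 0.05, against 2.93%). Between TN and SP cells of KO mice 0 of 10 were called against 0.0416% (1 of 10 at an unadjusted p under 0.05, against 2.77%). The test of the difference itself, the interaction of genotype and subset, called 0 of 10 genes for TN against TP (0.025% of all genes), with 2 of 10 and 6.27% of all genes at an unadjusted p under 0.05. It called 0 of 10 for SP against TP (0.0166%), with 0 of 10 and 4.41% at an unadjusted p under 0.05. The H2-K1 interaction for TN against TP was 0.17 (95% interval 0.02 to 0.32, adjusted p = 0.739), and that of Calr was -0.04 (95% interval -0.25 to 0.18), so a subset dependence of the Calr difference was not detectable.

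**Figure D4:**
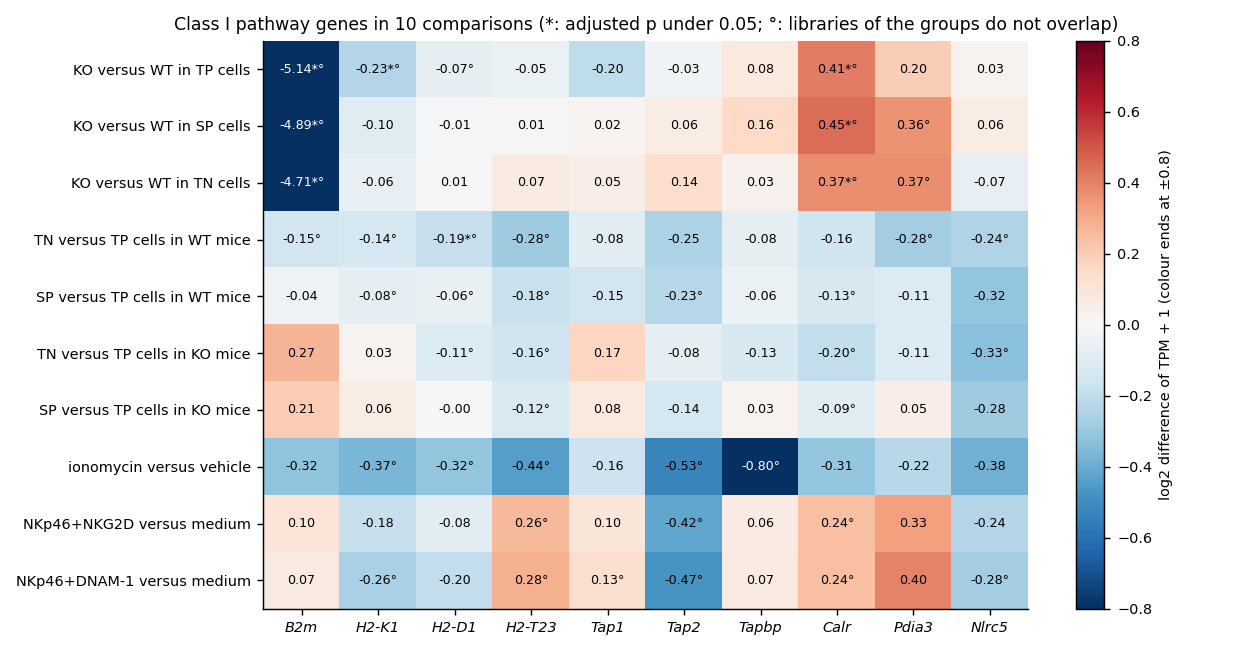
Log2 differences of TPM + 1 for the 10 genes (columns) in 10 comparisons (rows), with colour from blue (lower in the first-named group) to red (higher) ending at ±0.8; * marks an adjusted p under 0.05 and ° groups whose libraries do not overlap. Calls occur in the 3 genotype rows and for H2-D1 in WT TN against TP cells, and the ionomycin row is below 0 for all 10 genes without a call.

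Ionomycin treatment left all 10 genes lower on average than vehicle, and none passed the threshold. The median log2 difference was -0.35 against -0.00 for all 14372 genes tested. By limma 0 of 10 were called, against 2.91% of all genes, and 3 of 10 had an unadjusted p under 0.05 (15.1% of all genes). On simulated data with the spread of these libraries, 0 of 50 genes raised by 1 log2 unit and 8 of 50 raised by 2 were called. The changed genes were drawn at random from all genes tested. The 10 class I genes are more abundant than most (the lowest, Tap2, at percentile 86.5 or above), so these shares need not hold for them.

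Tapbp showed the largest difference. Vehicle libraries held 365, 416 and 316 TPM and ionomycin libraries 252, 209 and 170.2 TPM, without overlap (-0.80, SE 0.22, adjusted p = 0.107). Tap2 stood at 126, 155 and 162 TPM against 103, 110.4 and 92.2 TPM, also without overlap (-0.53, adjusted p = 0.292). H2-T23 stood at 551, 496 and 458 TPM against 399, 338 and 368 TPM (-0.44, adjusted p = 0.295). The groups did not overlap for H2-K1 either, at 6729, 7786 and 7151 TPM against 5283, 5921 and 5594.5 TPM (-0.37, adjusted p = 0.39), nor for H2-D1, at 2527, 2974 and 2879 TPM against 2225, 2259 and 2229 TPM (-0.32, adjusted p = 0.448). In all, 5 of 10 genes were lower in ionomycin without overlap, as were 9.57% of all genes.

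The chaperones could not be compared closely, since the vehicle libraries differed among themselves. Calr was at 1585, 847 and 284 TPM in them, against 688, 559 and 519.97 TPM with ionomycin. Pdia3 stood at 892, 456 and 291 TPM against 471, 392 and 405 TPM, and B2m at 6160, 4985 and 3119 TPM against 4399.5, 3271 and 3390.5 TPM. Vehicle replicate 1 was highest and replicate 3 lowest for each of these 3 genes. Of 9 other tested heavy chains 0 were called. H2-Q7 averaged 2332 ± 129 TPM with ionomycin against 1441 ± 221 with vehicle (SD, n = 3), a difference of 0.70 (adjusted p = 0.0979) in the direction opposite to H2-K1. The NK cell markers Ncr1, Gzma and Tyrobp fell with ionomycin (Ncr1 from a mean of 795 to 123 TPM), and neutrophil markers summed to between 0 and 377 TPM in vehicle and between 0 and 120.2 TPM in ionomycin libraries. Their part in the class I values was not tested.

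Stimulation through activating receptors called none of the 10 genes. NKp46 is a natural cytotoxicity receptor, NKG2D binds stress-induced ligands, and DNAM-1 is an adhesion and activating receptor. Against medium, NKp46+NKG2D called 0 of 10 genes by limma (0.431% of all genes), with 3 of 10 and 15.1% of all genes at an unadjusted p under 0.05. NKp46+DNAM-1 called 0 of 10 (0.782% of all genes), with 5 of 10 and 18% at an unadjusted p under 0.05, and 2 of 10 (H2-K1 and Pdia3) were called with the replicate number as a block. With NKp46+NKG2D 2 of 10 were higher and 1 of 10 lower without overlap (7.5% and 9.84% of all genes), and with NKp46+DNAM-1 3 and 3 of 10 (9.46% and 11.6%). Both comparisons use the same 3 medium libraries, and their values are given side by side for that reason. Between the antibody pairs 0 of 10 were called against 0.0146% of all genes, 0 of 10 had an unadjusted p under 0.05 (1.22% of all genes), and differences ran from -0.12 to 0.07.

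Tap2 was lower in both stimulated groups without overlap. It stood at 116, 115 and 142 TPM in medium, at 99.2, 87.5 and 90.4 TPM with NKp46+NKG2D and at 101, 81.1 and 86.0 TPM with NKp46+DNAM-1. The differences were -0.42 (adjusted p = 0.202) and -0.47 (adjusted p = 0.126). Tap1, its partner subunit, stood at 148, 162 and 164 TPM in medium and at 155 to 182 TPM in the stimulated libraries (0.10 and 0.13), so the ratio of Tap1 to Tap2 averaged 1.28 ± 0.13 in medium, 1.84 ± 0.24 with NKp46+NKG2D and 1.94 ± 0.12 with NKp46+DNAM-1 (SD, n = 3).

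The heavy chains went different ways. H2-T23 stood at 285, 270.2 and 238 TPM in medium, at 338, 296 and 315 TPM with NKp46+NKG2D and at 313, 311 and 341 TPM with NKp46+DNAM-1, higher in all 6 stimulated libraries (0.26, adjusted p = 0.257, and 0.28, adjusted p = 0.189). H2-K1 stood at 5108, 4334 and 4519.5 TPM in medium, at 4389.5, 4120.4 and 3787 TPM with NKp46+NKG2D and at 4155, 3839 and 3636 TPM with NKp46+DNAM-1. Its differences were -0.18 (adjusted p = 0.342) and -0.26 (adjusted p = 0.161). With the replicate number as a block, the NKp46+DNAM-1 difference of H2-K1 passed (adjusted p = 0.0274). H2-D1 ran from 1489 to 1831 TPM in medium and from 1381 to 1689.95 TPM in stimulated libraries. B2m ran from 3923 to 4538 TPM in medium and from 4232 to 4667 TPM in stimulated libraries, so H2-K1 over B2m averaged 1.13 ± 0.16 in medium, 0.92 ± 0.11 with NKp46+NKG2D and 0.89 ± 0.09 with NKp46+DNAM-1.

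Of the chaperones, Calr stood at 509.5, 541 and 539 TPM in medium, at 581, 611.5 and 694 TPM with NKp46+NKG2D and at 551, 652 and 687 TPM with NKp46+DNAM-1. All 6 stimulated libraries lay above all medium libraries, and both differences were 0.24 (adjusted p = 0.302 and 0.254). Pdia3 stood at 333, 361 and 496 TPM in medium, at 449, 457 and 575 TPM with NKp46+NKG2D and at 448, 499.9 and 611 TPM with NKp46+DNAM-1 (0.33, adjusted p = 0.39, and 0.40, adjusted p = 0.258). Replicate 3 was the highest library of each group for Pdia3, and with the replicate number as a block the NKp46+DNAM-1 difference passed (adjusted p = 0.0256). Tapbp and Nlrc5 gave no call: Tapbp ran from 208 to 240.1 TPM over all 9 libraries, and Nlrc5 from 126 to 208 TPM. Of 11 tested entries for receptors of class I, 1 fell with NKp46+DNAM-1: Klrd1, which encodes CD94, from a mean of 1712 ± 83.0 to 1341 ± 36.9 TPM (-0.35, adjusted p = 0.0481).

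**Figure D5:**
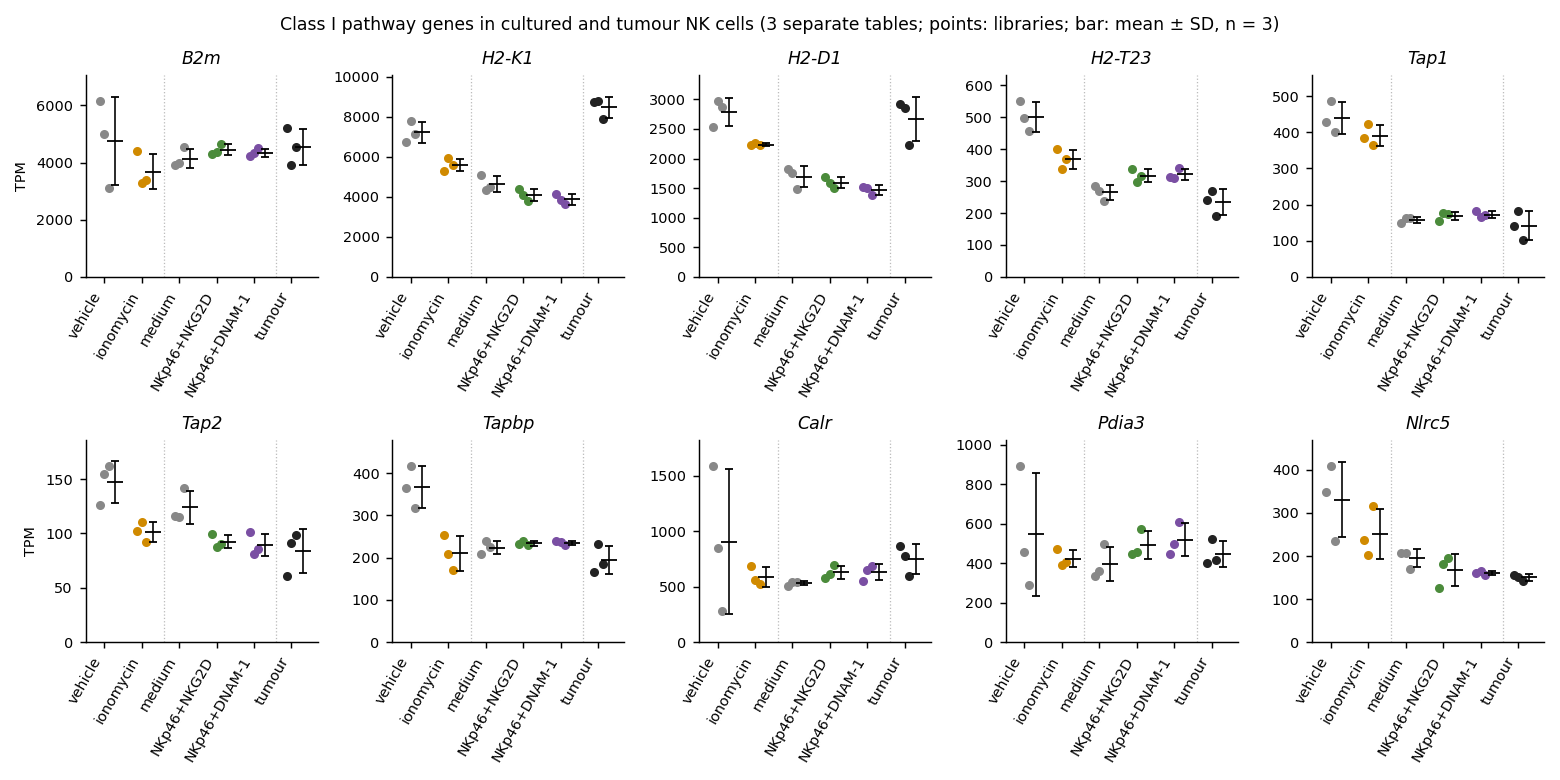
Levels in TPM of the 10 genes (vertical axes from 0) in vehicle and ionomycin, in medium and with antibody pairs, and in tumour NK cells, with dotted lines between the 3 separately normalized tables, 1 point per library and a bar for the mean ± SD of 3 libraries. Tapbp and Tap2 with ionomycin and Tap2 with both antibody pairs lie below their controls without overlap, and the vehicle libraries of Calr spread from 284 to 1585 TPM.

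Levels in NK cells from B2m-deficient tumours are given as a description, with no control. H2-K1 stood at 8739, 8797 and 7882 TPM, B2m at 5196, 3929 and 4536 TPM and H2-D1 at 2923, 2848 and 2232 TPM. The genotype label of these NK cells is WT, and the column names hold the terms B2MKO and SP, which the titles do not explain. Calr stood at 869, 776 and 599.5 TPM, Pdia3 at 399.6, 521 and 419 TPM and H2-T23 at 242, 269.8 and 192 TPM. Tapbp stood at 166, 231 and 185 TPM, Nlrc5 at 157, 152 and 142 TPM, Tap1 at 141, 181 and 102 TPM and Tap2 at 61.3, 91.2 and 99.0 TPM. Tap2 was the lowest of the 10 genes in every tumour library, and H2-K1 over B2m averaged 1.89 ± 0.31 (SD, n = 3). The 6 epithelial tumour cell markers summed to between 1.93 and 4.89 TPM and the 8 neutrophil markers to between 19.4 and 27.6 TPM. The lead of H2-K1 over H2-D1 averaged 3.20 ± 0.29, and no test against another table was made.

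Within the 18 sorted libraries, with group means removed, the 10 genes did not vary as a block. Pearson correlations between pairs, given as a description over libraries that share batch and sort, ran from -0.47 for Tap2 with Pdia3 to 0.66 for B2m with Pdia3. H2-D1 with Tapbp reached 0.58 and H2-K1 with Tap2 0.55. The genes most like Tap1 by this measure were Atg14 (r = 0.898), Zfp14 (0.888) and Gstm4 (0.86). Those most like Nlrc5 were Snhg5 (0.851), Traf4 (0.848) and Lmna (0.848), those most like H2-K1 were Itgb7 (0.866), Zfp940 (0.864) and Rom1 (0.858), and those most like Pdia3 were Macrod2 (0.842), Hnrnpab (0.809) and Isg20l2 (0.808). The 10 class I genes themselves were left out of these searches. Each set of 3 was picked as the highest of all the other genes searched, so high values come in part from the picking. Mean levels of the picked genes ran from 1.37 TPM for Macrod2 to 548.5 TPM for Itgb7. Whether any of them varies with its class I gene beyond this was not tested.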

How the data were processed

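RNA was sequenced from 36 NK cell libraries with a kit that captures poly(A) RNA, per the labels' protocols. The authors deposited 4 tables of TPM with 2 decimals, and the submitters' processing notes name STAR, RSEM and GRCm39 without versions or roles. Depth is unknown. The subset table lists genes with a symbol only, so its libraries sum to 934292 to 948786 TPM. Each table holds 1 batch date, and groups were compared within a table only.

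From these TPM, log2(TPM + 1) was fitted with limma 3.58.1 in R 4.3.3 for genes averaging 1 TPM or more (12018, 14372 and 13689 in the subset, ionomycin and antibody tables). The fit had a mean for each group, moderated variances with an intensity trend, two-sided tests and Benjamini-Hochberg adjustment over all genes, called under 0.05. The averaged genotype comparison treats the subsets of a mouse as independent, and their consensus correlation was 0.0153. On simulated TP libraries, with changed genes drawn at random from all genes tested, 27 of 50 raised by 1 log2 unit and 5 of 50 raised by 0.5 were called. Genes were named as all 10 members, every called gene of the fixed lists, and the 3 genes most correlated with Tap1, Nlrc5, H2-K1 and Pdia3. The members and lists were chosen with earlier results of these data known. The named columns join a number to the genotype (as in WT1_TP), read here as the mouse. Same-numbered libraries correlated by 0.064 on average in the antibody, 0.062 in the ionomycin, 0.02 in the KO and 0 in the WT subset libraries. Fits with this block, other pseudocounts, filters, scalings and left-out libraries were run.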

Additional observations from a re-analysis of the deposited data

How the results depend on the processing

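Over 16 comparisons, 243 of 266 counts of called class I genes under alternative settings stayed within 1.5 times of the reported count. A count of 0 that stayed 0 is included among them. Of 1106 single-gene values 0 changed direction, but only genes called in the reported fit or in an alternative were followed. A reversal was unlikely for genes picked in this way. KO against WT in TP cells went from 3 called genes to 1 without the variance trend and to 1 with only the groups compared. KO against WT in TN cells went from 2 to 1 under the same settings, and ran from 1 to 2 over the removals of 1 library. TN against TP cells in WT mice went from 1 to 0 with a pseudocount of 0.1, with no filter, with median-of-ratios rescaling, with quantile normalization, without the variance trend, with only the groups compared and with the replicate block, and was 0 in each removal of 1 library. With the replicate number as a block, NKp46+DNAM-1 against medium went from 0 to 2 (H2-K1 and Pdia3), all genes called there went from 107 to 528, and all genes called for NKp46+NKG2D went from 59 to 239. Beside this and TN against TP cells in WT mice, the block changed no count of called class I genes. Of the pairing by number, 1 of 9 same-numbered pairs in the antibody table and 1 of 3 in the ionomycin table correlated above 0.1, and 0 of 9 in either genotype of the subset table. With groups taken from the titles of the antibody libraries, 0 of 10 genes were called in each comparison, and all genes called fell to 0 for NKp46+NKG2D and 1 for NKp46+DNAM-1. Calr and Pdia3, averaged over subsets, held their calls under every alternative run (largest adjusted p 0.00113 and 0.0355). H2-K1 lost its averaged call with no filter (adjusted p = 0.24), quantile normalization, no variance trend (adjusted p = 0.153) and without the TP libraries, the last chosen after seeing the data. Leaving out the TP libraries took all genes called in that comparison from 743 to 252. Ionomycin calls over all genes ran from 43 to 712 over the removals of 1 library. No scaling moved the median of all genes by over 0.1. The cause of these changes was not tested. Depth is unknown, so counting error is not separated from the spread between libraries.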
